A study of Mus musculus with 5 samples.

Results

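The receptors described here are G-protein-coupled receptors that myeloid cells use to sense inflammatory signals: the formyl peptide receptors Fpr1 and Fpr2, the anaphylatoxin receptors C3ar1 and C5ar1, the platelet-activating factor receptor Ptafr, the lipid-responsive receptors Gpr18 and Gpr84, and the UDP-sugar receptor P2ry14. Members were taken by gene symbol from the platform annotation, which paired 11 probe sets with 7 of the 8 genes. None of the 11 carried a further symbol. No probe set was named Fpr1 in that annotation, and Fpr1 is not analysed here. The 11 probe sets stood among 45037 on the array, and all 11 passed the filter on low signals that left 41053 to be tested.

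Tumoricidal macrophages, 3 arrays, were CD11b+ cells sorted from subcutaneous Matrigel plugs that held MOPC315 myeloma cells. Control macrophages, 2 arrays, were sorted in the same way from plugs with an antigen-loss variant of MOPC315. Both groups came from adult Balb/c SCID mice aged 7 to 12 weeks that carried a transgenic T-cell receptor specific for the idiotype of the MOPC315 antibody, and both were collected on day 8. Each array is labelled a biological replicate, and whether animals were pooled is not given in the sources used here. SCID mice lack nearly all B and T cells of their own, so that T cells in these hosts carry the transgenic receptor. The sort used CD11b, which other myeloid cells and natural killer cells carry too.

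As background, chemoattractant receptors couple mainly to Gi proteins: ligand binding frees Gbeta-gamma subunits that steer cell migration, and RGS proteins, GRK kinases and arrestins end the signal. Formyl peptides come from bacteria and damaged mitochondria, while C3a and C5a are split off complement proteins. Gpr84 and P2ry14 respond to small metabolites, medium-chain fatty acids for Gpr84 and UDP-glucose for P2ry14. Inflammatory stimuli are known to raise Gpr84 in mouse macrophages.

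Upstream sequences of 3 of the receptors that were higher in tumoricidal cells are shown, searched for motifs of interferon-activated and myeloid transcription factors. The Gpr84 stretch was searched too and is not printed, as it overlaps the annotated gene. Each holds the 250 bases before the RefSeq start in GRCm38.p6, read 5′ to 3′ on the gene's strand. Matches to 3 motifs, searched on both strands, appear in capitals: TTCNNNGAA, the GAS element bound by STAT proteins, GAAA, any 2 bases and GAAA again, the core of the interferon-stimulated response element (ISRE), and GAGGAA, the core bound by the myeloid factor PU.1. Fpr2 is from chr17:17887574-17887823, plus strand, Gpr18 from chr14:121915889-121916138, minus strand, and P2ry14 from chr3:59153493-59153742, minus strand, before the outermost of its 4 listed starts.
Fpr2: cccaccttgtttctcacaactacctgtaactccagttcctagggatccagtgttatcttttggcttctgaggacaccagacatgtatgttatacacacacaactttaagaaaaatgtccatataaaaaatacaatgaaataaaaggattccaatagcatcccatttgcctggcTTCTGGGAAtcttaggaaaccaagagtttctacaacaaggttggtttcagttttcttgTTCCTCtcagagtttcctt
Gpr18: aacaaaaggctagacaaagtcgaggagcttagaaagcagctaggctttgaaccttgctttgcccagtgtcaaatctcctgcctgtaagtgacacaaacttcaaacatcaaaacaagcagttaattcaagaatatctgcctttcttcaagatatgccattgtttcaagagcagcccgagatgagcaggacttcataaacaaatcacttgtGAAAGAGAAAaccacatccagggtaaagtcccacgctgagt
P2ry14: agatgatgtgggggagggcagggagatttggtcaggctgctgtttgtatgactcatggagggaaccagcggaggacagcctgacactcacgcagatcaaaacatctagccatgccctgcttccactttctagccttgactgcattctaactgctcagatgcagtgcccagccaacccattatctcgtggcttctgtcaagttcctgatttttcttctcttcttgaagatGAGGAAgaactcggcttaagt
The Fpr2 stretch held 1 GAS match that began 77 bases before the start and 1 PU.1 core 19 bases before it. Gpr18 held 1 ISRE core 41 bases before the start, and P2ry14 held 1 PU.1 core 21 bases before it. No 2 of these matches overlapped. The stretches before the other listed P2ry14 starts, not printed, held PU.1 cores 29, 239 and 30 bases before the start and no other match. Those at 29 and 239 bases are the same site. The Gpr84 stretch held 0 matches to any of the 3 motifs, as did those of C3ar1 and C5ar1, while that of Ptafr held 1 PU.1 core. Like that of Gpr84, the C5ar1 stretch overlaps the annotated gene. Among 32851 upstream stretches of the same length, 7.02% held a GAS match, 2.98% an ISRE core and 23.3% a PU.1 core. A match is a string of letters in this window and not a measured binding site.

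The receptors P2ry14, Fpr2, Gpr84 and Gpr18 had higher signals on every tumoricidal array than on either control array, by 2.72 to 4.70 times. C3ar1 and C5ar1, the receptors for the complement fragments, had overlapping groups with the median scaling used here. The 2 probe sets of Ptafr went opposite ways. None of the 11 probe sets passed limma's adjusted p of 0.05 over all probe sets, a threshold that 0.0512% of all probe sets passed; at an unadjusted p under 0.05 there were 6 of 11, 5 of them higher in tumoricidal cells, where 7.99% of all probe sets were that low. All signals below are linear intensities after each array was scaled to a common median, and each log2 difference is tumoricidal minus control.

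P2ry14 senses UDP-glucose and related UDP-sugars that leave damaged or stressed cells. Its probe set 1424733_at gave 383, 357 and 511 in tumoricidal replicates 1 to 3, against 100 and 76.8 in control replicates 1 and 2. The 3 tumoricidal arrays were all high, with tumoricidal replicate 3 the highest, and the groups were 1.83 apart on the log2 scale at their nearest arrays. The log2 difference was 2.23 (SE 0.28, 95% interval 1.53 to 2.94), a fold of 4.70 (limma adjusted p = 0.115). Only 0.387% of all probe sets tested had a larger log2 difference. Spike-in controls split the arrays into 2 batches that each hold both groups: A with tumoricidal replicates 1 and 2 beside control replicate 1, and B with tumoricidal replicate 3 beside control replicate 2. The P2ry14 difference was 1.88 in A and 2.73 in B. The whole gene lies at chr3:59114623-59153492.

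Fpr2 binds formyl peptides and also host ligands, among them annexin A1 and serum amyloid A. Probe set 1422953_at gave 2857, 1949 and 2654 in tumoricidal replicates 1 to 3, against 630 and 787 in control replicates 1 and 2. Tumoricidal replicate 2 was the lowest of its group and still 1.31 above the higher control array in log2. The mean was 2487 ± 476 (SD, n = 3) in tumoricidal cells and 709 ± 110 (SD, n = 2) in control cells. Fpr2 thus differed by 1.80 (SE 0.28, 95% interval 1.1 to 2.51), a fold of 3.48 (limma adjusted p = 0.172). The values within batches A and B were 1.90 and 1.75. Fpr2 lies at chr17:17887824-17893952, next to Fpr1 at chr17:17876471-17883939.

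Gpr84 is a receptor for medium-chain fatty acids. On probe set 1420591_at the tumoricidal arrays read 147, 124 and 114, against 41.7 and 36.9 on the control arrays. Both groups were narrow, with SDs of 16.9 and 3.36 around means of 128 and 39.3 in tumoricidal and control cells (n = 3 and n = 2). The log2 difference of 1.70 (SE 0.25, 95% interval 1.09 to 2.31) is a fold of 3.25 (limma adjusted p = 0.152), and the nearest arrays of the groups were 1.45 apart. Batch A gave 1.69 and batch B 1.62. Gpr84 lies at chr15:103308233-103310670.

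Gpr18 is best known from lymphocytes, and its ligands are debated. Probe set 1439141_at gave 206, 264 and 126 in tumoricidal replicates 1 to 3, against 73.8 and 65.8 in control replicates 1 and 2. Tumoricidal replicate 2 was the highest array and tumoricidal replicate 3 the lowest of its group, 0.77 above the higher control array in log2. The log2 difference was 1.45 (SE 0.37, 95% interval 0.53 to 2.36), a fold of 2.72 (limma adjusted p = 0.386), with 1.66 within batch A and 0.93 within batch B. T-cell markers had a median log2 difference of 1.21 over 8 measured genes. Of these, 3 had every tumoricidal array above both control arrays, where 17.0% of all genes did. Those were Cd3e, Cd3g and Cd247, parts of the T-cell receptor complex, with Cd3g at 31.5, 185 and 25.9 in tumoricidal replicates 1 to 3, against 14.3 and 8.50 in control replicates 1 and 2. Cd3e was apart by little, with tumoricidal replicate 1 at 8.75 against 8.44 on control replicate 1. Other Cd247 probe sets differed by 1.83 with groups apart, and by -0.59 and -0.47 with overlapping groups. Cd3d, Cd8a, Cd5, Cd28 and Cd4 had overlapping groups, at 1.64, 0.78, 0.13, -0.09 and -0.26. The sum of the 8 was 142, 1314 and 106 in tumoricidal cells, against 194 and 97.2 in control cells, so tumoricidal replicate 2 was the highest array for the sum and for Gpr18. Without tumoricidal replicate 2 the Gpr18 difference was 1.21, and the part of T cells in it was not tested. Gpr18 lies at chr14:121911434-121915888.

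**Figure D1:**
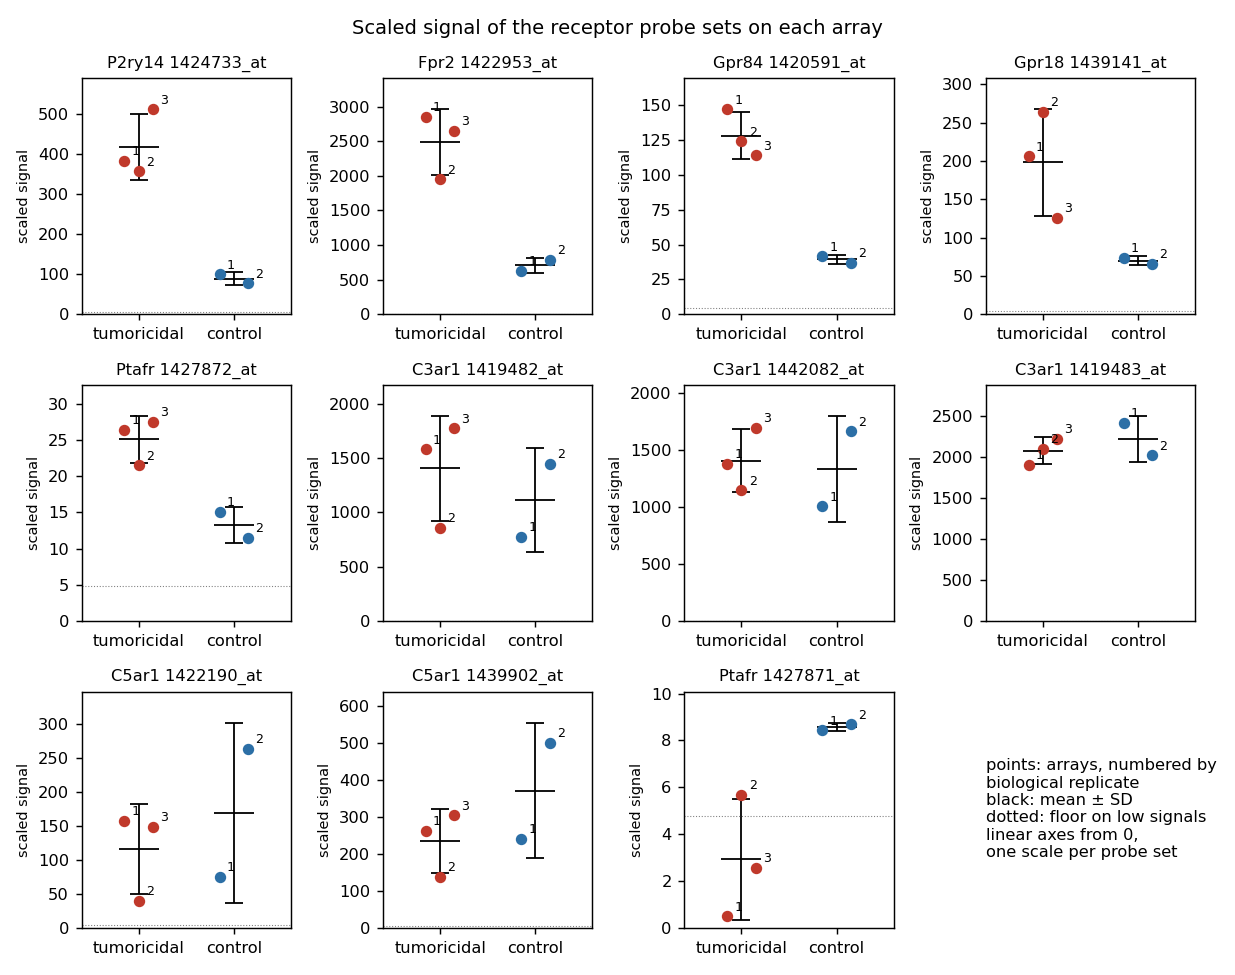
Scaled signal (linear, each axis from 0) of the 11 receptor probe sets on the 3 tumoricidal arrays (red, left) and the 2 control arrays (blue, right), with points numbered by biological replicate, mean ± SD in black and the floor on low signals dotted. P2ry14, Fpr2, Gpr84 and Gpr18 show groups that do not overlap, C3ar1 and C5ar1 show groups that do, and the 2 Ptafr probe sets go opposite ways. Scales differ between probe sets and cannot be set against each other.

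Ptafr binds platelet-activating factor, a phospholipid made by activated leukocytes. Its brighter probe set, 1427872_at, read 26.4, 21.5 and 27.5 in tumoricidal replicates 1 to 3, against 15.1 and 11.5 in control replicates 1 and 2. That is a log2 difference of 0.92 (SE 0.26, 95% interval 0.27 to 1.58, limma adjusted p = 0.446), with every tumoricidal array above both control arrays. The other probe set, 1427871_at, read 0.508, 5.68 and 2.57 in tumoricidal cells, against 8.44 and 8.70 in control cells. Here the tumoricidal arrays were lower, 2 of 3 of them under the floor of 4.79, and the difference of -0.76 (SE 0.23, limma adjusted p = 0.492) depends on that floor. With the floor at the 10th percentile it was -1.70. Averaged over both probe sets Ptafr differed by 0.08, so that these data give no direction for the gene. Ptafr lies at chr4:132564067-132582683.

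C3ar1, the receptor for C3a, had 3 probe sets with log2 differences of -0.09, 0.10 and 0.34, each within the spread of its arrays. The brightest on average, 1419483_at, read 1912, 2108 and 2229 in tumoricidal replicates 1 to 3, against 2422 and 2025 in control replicates 1 and 2. Control replicate 1 was the highest of the 5 arrays on this probe set. The difference was -0.09 (SE 0.24, 95% interval -0.68 to 0.50, limma adjusted p = 0.930). Probe sets 1442082_at and 1419482_at, which differed by 0.10 (95% interval -0.72 to 0.92) and 0.34 (95% interval -0.77 to 1.45), were both lower on control replicate 1 than on control replicate 2, the opposite order. With quantile normalization all 3 differences were negative, at -0.42, -0.24 and -0.02, so the sign for C3ar1 depends on the probe set and the scaling. C3ar1 lies at chr6:122847140-122856157.

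C5ar1, the receptor for the strong neutrophil and macrophage attractant C5a, was lower on average in tumoricidal cells, within the spread of the arrays as scaled here. Probe set 1439902_at read 262, 138 and 305 in tumoricidal replicates 1 to 3, against 241 and 500 in control replicates 1 and 2. Control replicate 2 was the highest array and tumoricidal replicate 2 the lowest. The difference was -0.64 (SE 0.49, 95% interval -1.84 to 0.56, limma adjusted p = 0.813), but -0.11 without control replicate 2 and -1.17 without control replicate 1. It was -0.87 with the deposited scaling and -0.86 with quantile normalization. With either of these scalings every tumoricidal array lay below both control arrays, so the overlap of this probe set depends on the scaling. Probe set 1422190_at had the same lowest and highest arrays, at 39.9 and 264, and a difference of -0.52 (SE 0.81, limma adjusted p = 0.881) that became 0.12 without tumoricidal replicate 2 and 0.38 without control replicate 2. C5ar1 lies at chr7:16246743-16259540.

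**Figure D2:**
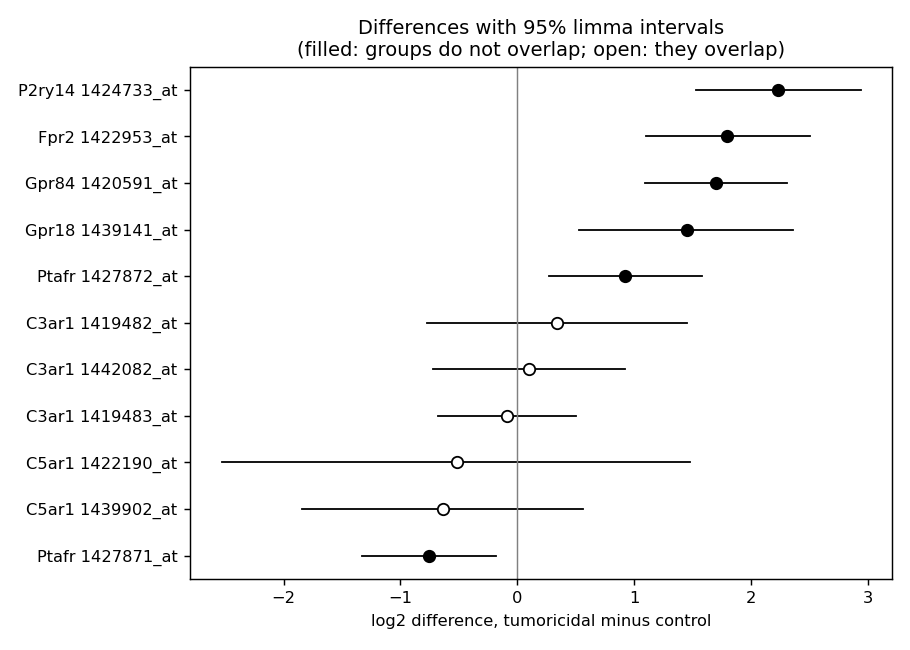
Log2 difference (tumoricidal minus control) of each receptor probe set with its 95% limma interval; filled points have groups that do not overlap. P2ry14, at 2.23, is the highest of the 11, and the interval of every C3ar1 and C5ar1 probe set includes 0.

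Taking 1 probe set per gene, that with the highest mean, 5 of 7 receptors had every tumoricidal array above both control arrays, where 17.0% of all genes tested did, and 0 of 7 had every tumoricidal array below, where 6.51% did. With a gene's probe sets averaged the 5 became 4, as Ptafr dropped out. With the deposited scaling or quantile normalization 6 of 7 had groups apart, as C5ar1 was then lower on every tumoricidal array. The median log2 difference of the 7 was 1.45, against 0.13 over all 17074 genes. Over all probe sets tested the median was 0.09 with the scaling used here and -0.11 with the deposited scaling. Every difference of P2ry14, Fpr2, Gpr84 and Gpr18 stayed positive under each setting tried, and the lowest were 1.88 (within batch A), 1.46 (quantile normalization), 1.38 (no floor, log2 of signal + 16) and 0.93 (within batch B).

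**Figure D3:**
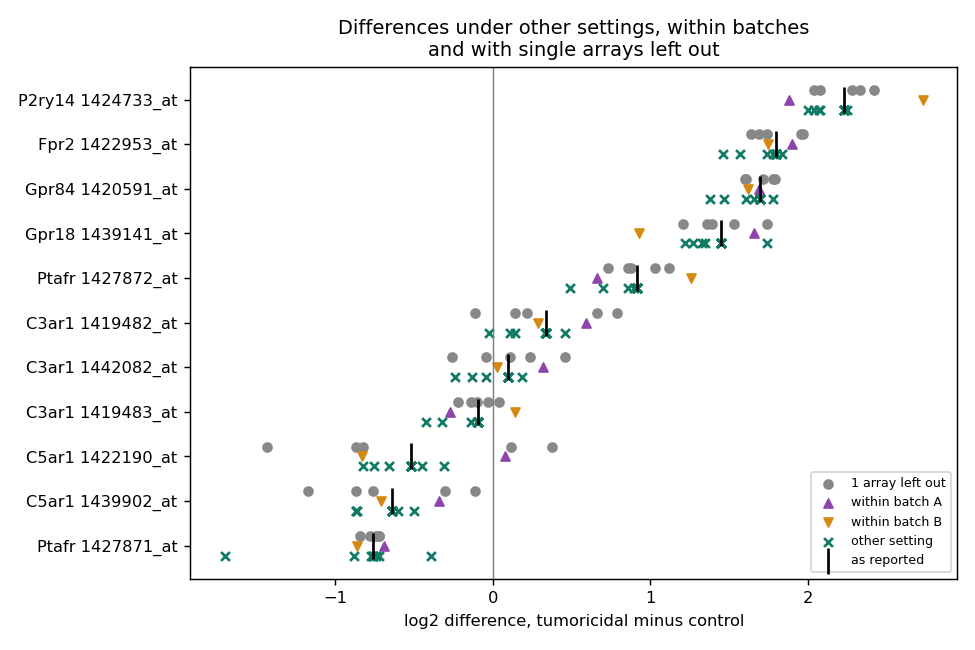
Log2 difference of each receptor probe set as reported (black bar), within the 2 spike-in batches (triangles), with 1 array left out (grey) and under other settings (crosses). P2ry14, Fpr2, Gpr84, Gpr18 and the Ptafr probe set 1427872_at stay right of 0; the 3 C3ar1 probe sets and the C5ar1 probe set 1422190_at fall on both sides of it.

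The cells behind these signals were described with marker lists. All 9 macrophage markers were measured and above the floor, and summed to between 25254 and 34868 in tumoricidal samples, against 22282 and 27816 in control samples. Neutrophils also carry Fpr2 and are CD11b+. Their 13 measured markers had a median log2 difference of 0.91, with 7 higher on every tumoricidal array than on either control array (17.0% of all genes), and summed to 12080, 10537 and 11990 in tumoricidal replicates 1 to 3, against 4740 and 8054 in control replicates 1 and 2, with none at the floor throughout a group. S100a8, a calgranulin subunit, differed by 1.0 (SE 0.33) and its partner S100a9 by 0.91 (SE 0.28), both with groups apart. Of the 13 markers 10 had positive differences, while Mpo, Mmp9 and Elane differed by -0.29, -0.33 and -0.35 with overlapping groups. Natural killer cell markers summed to 911, 551 and 546 in tumoricidal cells, against 122 and 110 in control cells, with Klrk1, an activating receptor, at 2.52 and the granule protein Nkg7 at 2.44. Of the 6 natural killer cell markers measured, 4 were higher on every tumoricidal array than on either control array (17.0% of all genes). Klra8 was at the floor on both control arrays and on tumoricidal replicate 2. It differed by 0.20 and Klre1 by 1.39, both with overlapping groups. The part of neutrophils or natural killer cells in the receptor differences was not tested, and in bulk RNA more cells of a type and more RNA per cell cannot be told apart.

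**Figure D4:**
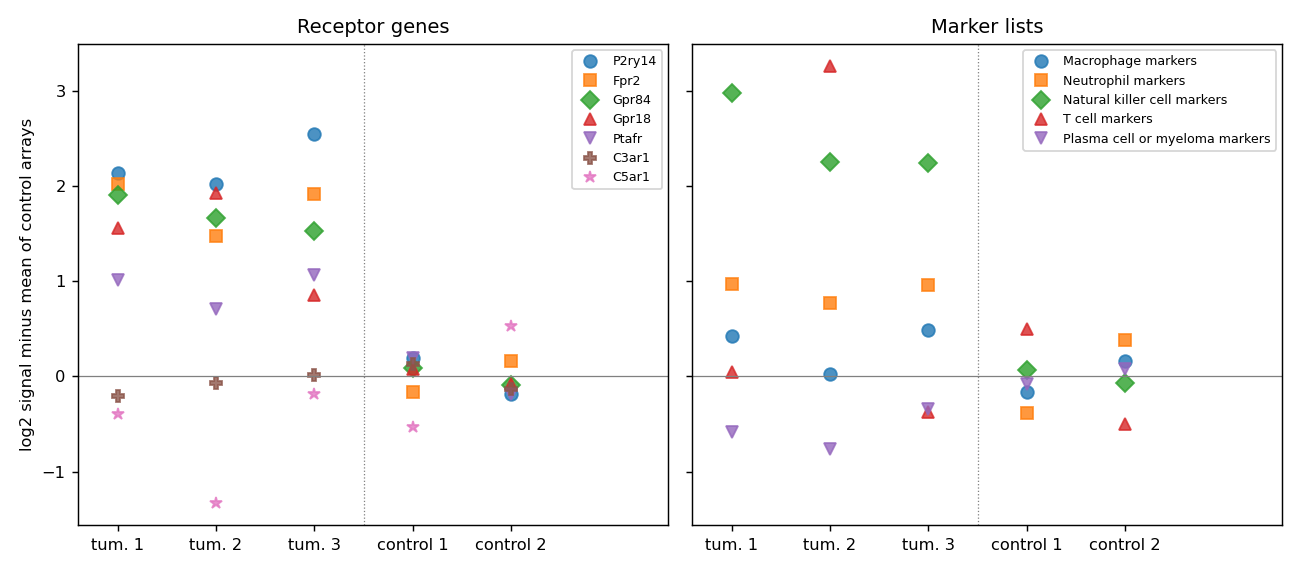
Log2 signal of each receptor gene (left panel) and of summed marker lists (right panel) on each array, minus the mean of the 2 control arrays. T-cell markers reach 3.26 on tumoricidal replicate 2 and lie between -0.50 and 0.50 on the other arrays, natural killer cell markers lie between 2.24 and 2.98 on all 3 tumoricidal arrays, and C5ar1 is lowest on tumoricidal replicate 2.

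Genes around the receptors were read from 3 lists, none of which had a member past the adjusted threshold. Of 39 related receptors 30 were measured; 10 had every tumoricidal array above both control arrays (17.0% of all genes did) and 2 every one below (6.51% of all genes), and the median log2 difference was 0.36. Hcar2, the receptor for niacin and the ketone body beta-hydroxybutyrate, read 1564, 1084 and 2266 in tumoricidal replicates 1 to 3, against 241 and 295 in control replicates 1 and 2. That is a difference of 2.55 (SE 0.37, limma adjusted p = 0.152), above that of P2ry14. Ltb4r1, the high-affinity receptor for the neutrophil attractant leukotriene B4, differed by 1.30 (SE 0.31). The 2 below were Gpr183, which senses oxysterols, at -1.08 (SE 0.31), and the sphingosine 1-phosphate receptor S1pr1 at -0.74 (SE 0.34).

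Within the nucleotide receptor family of P2ry14, its relatives did not share 1 direction. The ADP receptors P2ry13 and P2ry1 differed by 0.93 (SE 0.39) and 0.72 (SE 0.25), both with tumoricidal arrays above control arrays, and the ADP receptor P2ry12 by -0.27 (SE 0.43) with overlapping groups. P2ry13 read 137, 161 and 220 in tumoricidal cells, against 63.3 and 124 in control cells, so that its nearest arrays were much closer than those of P2ry14. P2ry13 and P2ry12 lie near P2ry14, at chr3:59207892-59210882 and chr3:59216271-59262985. The UDP receptor P2ry6 stood at -0.07 (SE 0.24), and P2ry2, which binds ATP and UTP, at -1.13 (SE 0.70) with overlapping groups and 0.02 within batch B. Of the formyl peptide receptor relatives of Fpr2, Fpr-rs4 differed by 0.63 (SE 0.51), with the groups overlapping, and Fpr-rs3 was at or below the floor on all but 1 array.

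Among ligands and the enzymes that make or destroy them, 17 of 20 were measured, 5 had groups apart with tumoricidal cells higher (17.0% of all genes) and 0 lower (6.51% of all genes), and the median was 0.25. Acod1, which makes the metabolite itaconate, differed by 1.99 (SE 0.40), and Cfb, complement factor B of the convertase that splits C3, by 1.68 (SE 0.35). The synthesis of platelet-activating factor uses Lpcat2 and Pla2g4a, both higher on every tumoricidal array than on either control array. Lpcat2, which makes platelet-activating factor from its lyso form, read 281, 191 and 407 in tumoricidal cells, against 60.5 and 118 in control cells, a difference of 1.73 (SE 0.45, limma adjusted p = 0.394); its other probe set differed by 2.14 (SE 0.22). Pla2g4a, the cytosolic phospholipase that frees arachidonic acid and the lyso precursor, read 1006, 916 and 1426 in tumoricidal cells, against 426 and 494 in control cells (difference 1.26, SE 0.29, limma adjusted p = 0.336). The fifth gene with groups apart, Pafah1b1, stood at 0.35, while its 4 other probe sets lay between -0.49 and -0.01. Pla2g7 and Lpcat1 differed by 0.70 (SE 0.36) and 0.01 (SE 0.25), both with overlapping groups. The Fpr2 ligands Anxa1 and Saa3 differed by -0.11 (SE 0.33) and -0.05 (SE 0.51). Camp, from the same list, differed by 0.98 (SE 0.44) with overlapping groups.

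For signalling and its shut-off, 27 of 29 genes were measured, 7 had groups apart with tumoricidal cells higher (17.0% of all genes) and 1 lower (6.51% of all genes), and the median was 0.24. Rgs16, which speeds GTP hydrolysis on Gi and Gq, differed by 1.88 (SE 0.40) on its brightest probe set. There control replicate 1, at 5.42, lay near the floor of 4.79. On 2 dimmer probe sets Rgs16 differed by 0.49 and 0.62 with overlapping groups. The G-protein subunits Gnb4 and Gna15 differed by 1.40 (SE 0.31) and 0.97 (SE 0.30). Rgs18, a regulator of the same kind, was the 1 gene below, at -0.74 (SE 0.33). Gng2 stood at 0.91 (SE 0.42) with overlapping groups. Gnai2, the main Gi subunit of leukocytes, differed by 0.31 (SE 0.25), and the arrestins Arrb1 and Arrb2 by 0.09 and -0.21.

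**Figure D5:**
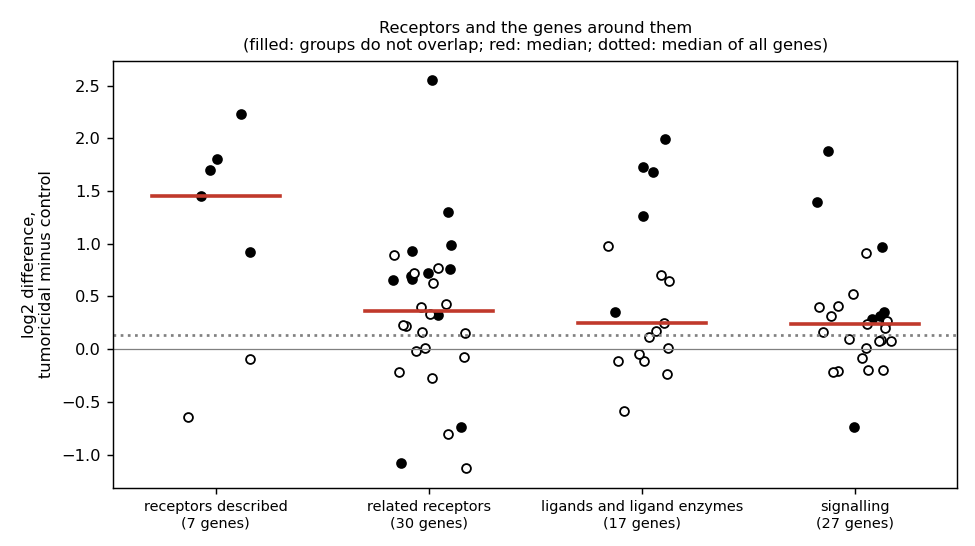
Log2 difference (tumoricidal minus control) of the 7 receptor genes and of the related receptor, ligand and signalling lists, 1 point per gene; filled points have groups that do not overlap, red lines are medians and the dotted line is the median of all genes, 0.13. The medians are 1.45 for the receptors described and 0.36, 0.25 and 0.24 for the lists of related receptors, ligands and signalling genes.

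The genes whose profile over the 5 arrays lay nearest to a receptor were found by the root mean square distance between mean-centred log2 signals. Nearest to P2ry14 were Ch25h (0.0771), Irgm1 (0.149) and Tma16 (0.193). Fpr2 had Psmb8 (0.0488), Dram1 (0.109) and H2-DMa (0.123) nearest. For Gpr84 they were Mapkapk3 (0.102), Cd40 (0.117) and Batf3 (0.158). Psmb8 read 3051, 2066 and 2823 in tumoricidal cells, against 641 and 889 in control cells, with tumoricidal replicate 2 lowest and control replicate 2 above control replicate 1, as for Fpr2. With 5 arrays in 2 groups such distances describe these arrays only.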

How the data were processed

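Total RNA of sorted CD11b+ cells was made into biotinylated cRNA and hybridised to Affymetrix arrays, per the labels' protocols. The values are linear probe set intensity as deposited by the authors, whose software and probe summary are not stated in the labels. The deposited arrays share a mean of 100 once 2% of values is trimmed from each end, but their medians differ by up to 1.47 times.

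Arrays were therefore brought to a common median. After removal of 64 control probe sets, signals below the pooled 25th percentile (4.79) were set to it and log2 taken; 3984 probe sets that lay at this floor throughout were left out. The other 41053 were fitted with limma 3.58.1 in R 4.3.3 (lmFit and eBayes without trend or covariate, two-sided, Benjamini-Hochberg over all of them, threshold 0.05). The number of arrays limits the precision. The fit was tested on simulated data.

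Gene names came from the platform annotation; a check by Entrez identifier against RefSeq (GRCm38.p6) changed 0 symbols. A gene is represented by its probe set with the highest mean. The receptors, gene lists, marker lists and tests were chosen with earlier results of these data known, and the motifs after the values were seen. All receptors are named, with up to 4 genes of greatest absolute difference per gene list and the 2 of highest mean per marker list. Anxa1, Saa3, Camp, Pafah1b1, Pla2g7, Lpcat1, S1pr1, P2ry1, P2ry6, P2ry12, P2ry13, Fpr-rs3, Fpr-rs4, Gnai2, Arrb1, Arrb2 and Rgs18 were added after their values were seen. So were the markers Klra8, Klre1, Cd3e, Cd3g, Cd247, Cd4, Cd5, Cd8a, Mpo, Mmp9, Elane, Ccr3, Il5ra, Vcan and Siglech. Alternatives were other scalings, floors, filters, variance models, blocks and single arrays left out. Besides the lists in the results, markers of monocytes, dendritic cells, eosinophils with mast cells and basophils, plasma cells, B cells, fibroblasts and endothelium were measured.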

Additional observations from a re-analysis of the deposited data

How the results depend on the processing

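The count of receptor probe sets past the threshold was 0 as reported and became 3 of 10 when only probe sets above the median were kept (P2ry14, Fpr2 and Gpr84; 193 calls among 22518 probe sets), 1 with an intensity trend in eBayes and 1 with log2(signal + 16) and no floor, P2ry14 in both. It was 0 with the other scalings, floor and filter, robust eBayes, either block and each array left out. Over all probe sets limma made 21 calls as reported, 65 with the trend, 71 with log2(signal + 16), 62 without the filter, 5 with robust eBayes, and 0 with the 10th percentile floor, with either block and with any array left out. The median over the 7 receptors ran from 1.21 to 1.74 with single arrays left out, where an arm of 1 array was assumed to vary like the other, and was 1.74 with the replicate number as a block. Deviations of tumoricidal and control replicate 1 correlated at 0.023 and those of replicate 2 at -0.237. These values cannot tell whether the replicate numbers pair the arrays. The deviations of the 2 control arrays mirror each other, and the replicate 2 arrays lie in different spike-in batches. The replicate block left every receptor probe set uncalled, which says little, as it made 0 calls over all probe sets. Tumoricidal replicate 3 has no control array of its number, so with this block it did not enter the difference. With the replicate block, C3ar1 1442082_at was -0.04. This probe set was also -0.13 with the deposited scaling and -0.24 with quantile normalization, which put C3ar1 1419482_at at -0.02. With single arrays left out the 3 C3ar1 probe sets 1419482_at, 1419483_at and 1442082_at ran from -0.11 to 0.79, -0.22 to 0.04 and -0.26 to 0.46, and C5ar1 1422190_at from -1.43 to 0.38. The cause was not tested.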

Other observations

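Plasma cell or myeloma markers were measured for 7 genes, of which 5 had every tumoricidal array below both control arrays (6.51% of all genes did) and 1 above (17.0% of all genes), with a median log2 difference of -1.60. Jchain, the joining chain of secreted IgA, read 387, 78.7 and 561 in tumoricidal cells, against 1623 and 1985 in control cells, and Xbp1, a secretory-cell transcription factor, differed by 0.30, although 1 of its 4 probe sets was lower, at -0.39. Eosinophil, mast cell and basophil markers had a median of 0.61 over 10 genes, with the basophil protease Mcpt8 at 76.1, 49.4 and 58.3 in tumoricidal cells, against 7.49 and 0.30 in control cells. The 0.30 lies under the floor of 4.79. Gata2 differed by 0.69. Of the 10 differences 8 were positive, while Ccr3 and Il5ra stood at -0.63 and -0.48 with overlapping groups.

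Inflammatory monocyte markers had a median of 0.26 over 4 genes, with Plac8 at 0.89 and Ccr2 at 0.15. Of the 4 differences 3 were positive, while Vcan stood at -0.43 with overlapping groups. Another Vcan probe set, 1421694_at, was lower on every tumoricidal array, at -0.54. Dendritic cell markers had a median of -0.10 over 6 genes, with Cd209a at -0.76 and Ccr7 at 0.58, both with overlapping groups. Only Siglech, at -1.66, had groups apart, lower in tumoricidal cells (6.51% of all genes were). It read 3.76, 3.75 and 8.18 in tumoricidal cells, the first 2 under the floor, against 18.8 and 17.4 in control cells. For B cells the median was -0.23 over 4 genes, with Cd79b at -0.91 and Pax5 at -0.27. Fibroblast and endothelial markers had medians of -0.05 and 0.03, with Col1a2 at -0.04, Col3a1 at 0.04, Pecam1 at 0.42 and Kdr at -0.34. None of the marker lists had a gene past limma's adjusted threshold. The 2 T-cell markers of highest mean, Cd3d and Cd28, read 397 and 316 on tumoricidal replicate 2, against at most 94.5 on any other array, and differed by 1.64 and -0.09 with overlapping groups, while Cd3g, Cd247 and Cd3e, whose groups did not overlap, differed by 2.28, 2.32 and 2.0. Csf1r and Lyz2, the brightest macrophage markers, differed by 0.30 and 0.33.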
